A study of Mus musculus with 160 samples.

Results

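The genes that make, break down, carry and read retinoic acid were followed across 8 sorted cell populations of the embryonic aorta-gonad-mesonephros (AGM) region, the site where the first blood stem cells of the mouse embryo arise. The genes were chosen by name, as 10 rows of a table of 46078 genes. They are the retinaldehyde dehydrogenases Aldh1a1, Aldh1a2 and Aldh1a3, the breakdown enzymes Cyp26a1 and Cyp26b1, the cellular retinoic acid binding proteins Crabp1 and Crabp2, and the retinoic acid receptors Rara, Rarb and Rarg. All 10 were found in the table.

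Retinoic acid is a small signalling molecule that cells make from vitamin A in 2 oxidation steps, the second carried out by the ALDH1A enzymes. It enters the nucleus and binds the RAR receptors, which sit on DNA as partners of RXR proteins and turn target genes up when the ligand is present. CYP26 enzymes oxidize retinoic acid to inactive forms, and the CRABP proteins bind it in the cytoplasm. In the embryo it patterns the trunk and the kidney and gonad primordia, and it has long been linked to the formation of blood stem cells from the endothelium.

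The best known element bound by RAR and RXR is a direct repeat of a 6-base half-site with 5 bases between the copies, called DR5. The promoter windows of RefSeq (GRCm38.p6, 250 bases before to 50 bases after each start) were searched for it on both strands, because receptor and breakdown genes are themselves known targets of retinoic acid. Of the 10 genes, 8 had a window. DR5 was found in the windows of Rarb and Cyp26a1, against 0.0974% of all 32851 windows. The shorter repeats with 1 and 2 bases between the half-sites, DR1 and DR2, were found in 0 windows of these genes, against 0.222% and 0.268% of all windows. The stretches around both repeats are shown 5′ to 3′ on the strand of the gene, with the repeat in capitals. That of Rarb lies on chr14:16575477-16575596, minus strand, with the repeat from 53 to 37 bases before the start. That of Cyp26a1 lies on chr19:37697688-37697807, plus strand, with the repeat from 32 to 16 bases before the start and read on the opposite strand.
Rarb: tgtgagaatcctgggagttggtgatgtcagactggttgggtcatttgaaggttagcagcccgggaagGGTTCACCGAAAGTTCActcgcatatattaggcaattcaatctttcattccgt
Cyp26a1: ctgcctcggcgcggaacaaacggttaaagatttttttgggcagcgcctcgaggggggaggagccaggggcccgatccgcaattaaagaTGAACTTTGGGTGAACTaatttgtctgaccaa
A match is a description of the letters only, and receptor binding was not measured.

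Every embryo was labelled Gata3-GFP +/-, so all groups carried a GFP knock-in allele of Gata3, and GFP reported expression of this transcription factor. Endothelial cells (ECs, positive for VE-cadherin and without CD41 and CD45) and hematopoietic cells (HCs, with CD41 and CD45 in the labels' design text and with either of them in the study's methods) came from E10.5 embryos. Mesenchymal cells (MCs, Pdgfrb+) and cells of the sympathetic nervous system (SNS, Ngfr+) came from E11.5 embryos, and each cell type was sorted into GFP+ and GFP- cells. There were 20 pools of 20 cells per population, sorted from embryos combined before the sort, and the labels do not tie a pool to an embryo, so p-values measure only the spread between pools.

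The authors counted Smart-seq2 reads per gene. Of 160 pools, 153 passed the study's limits on reads, with 1400824 to 16004756 counts on genes (median 3801233). They were 19 GFP+ and 20 GFP- EC, 20 GFP+ and 20 GFP- HC, 20 GFP+ and 17 GFP- MC, and 18 GFP+ and 19 GFP- SNS pools. Levels are CPM (counts scaled to the library total), scaled by the trimmed mean of M-values, and are given as lowest, median and highest over pools. Differences are log2 fold changes of GFP+ over GFP- pools ± their standard error (SE), with p-values from edgeR's quasi-likelihood test adjusted over all genes by Benjamini-Hochberg, and a gene was called at an adjusted p under 0.01. Because pools are bulk samples, fewer cells of a type and less RNA per cell cannot be told apart.

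Gata3 itself, the gene that carries the reporter, followed GFP in both E10.5 cell types. It lay at 28.5 to 174 CPM in GFP+ ECs against 4.37 to 29.6 in GFP- ECs, and at 12.7 to 149 CPM in GFP+ HCs against 1.78 to 12.9 in GFP- HCs. Cdh5, which encodes VE-cadherin, was at 265 to 1733 CPM in ECs. At E11.5, 12 pools went against the markers of their labels. The 3 such GFP+ MC pools had 1.09 to 12.4 CPM of Pdgfrb and 290 to 323 CPM of Ngfr, and the 3 GFP- MC pools had 0.952 to 1.89 CPM of Pdgfrb and 1506 to 3250 CPM of 7 summed sympathetic markers. The 3 GFP+ SNS pools had 17.2 to 35.4 CPM of sympathetic markers and 2153 to 2498 CPM of 7 summed mesenchymal markers, and the 3 GFP- SNS pools had 16.7 to 26.9 and 3119 to 4016 CPM. Gata3 lay at 16.2 to 82.2 CPM in these 3 GFP+ MC pools, at 122.5 to 394.7 CPM in the 3 GFP- MC pools, at 9.96 to 24.3 CPM in the 3 GFP+ SNS pools and at 44.35 to 50.1 CPM in the 3 GFP- SNS pools. By Gata3 and these marker sums the 3 GFP+ MC pools thus lay near the other GFP- SNS pools and the 3 GFP- MC pools near the other GFP+ SNS pools, and the 3 GFP+ SNS pools lay near the other GFP- MC pools and the 3 GFP- SNS pools near the other GFP+ MC pools. The 12 pools were those numbered 18, 19 and 20, in the order of the deposited columns, in every E11.5 population. Whether the labels of these pools were exchanged was not tested. Their labels were kept, so values over all E11.5 pools hold both kinds of pool, and the tests of the 10 genes at E11.5 are given with and without these 12 pools. At E10.5, 8 pools (7 GFP+ HC and 1 GFP+ EC) held over 500 CPM of mesenchymal, sympathetic and glial markers together, and results that changed without them are given in both ways. Without the 12 pools, Gata3 separated GFP+ from GFP- MCs (19.7 to 70.4 against 2.52 to 19.02 CPM) and GFP+ from GFP- SNS cells (111 to 306 against 11.2 to 93.9 CPM), while over all pools the MC groups overlapped and Gata3 was not called (log2 -0.66, adjusted p = 0.496).

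**Figure D1:**
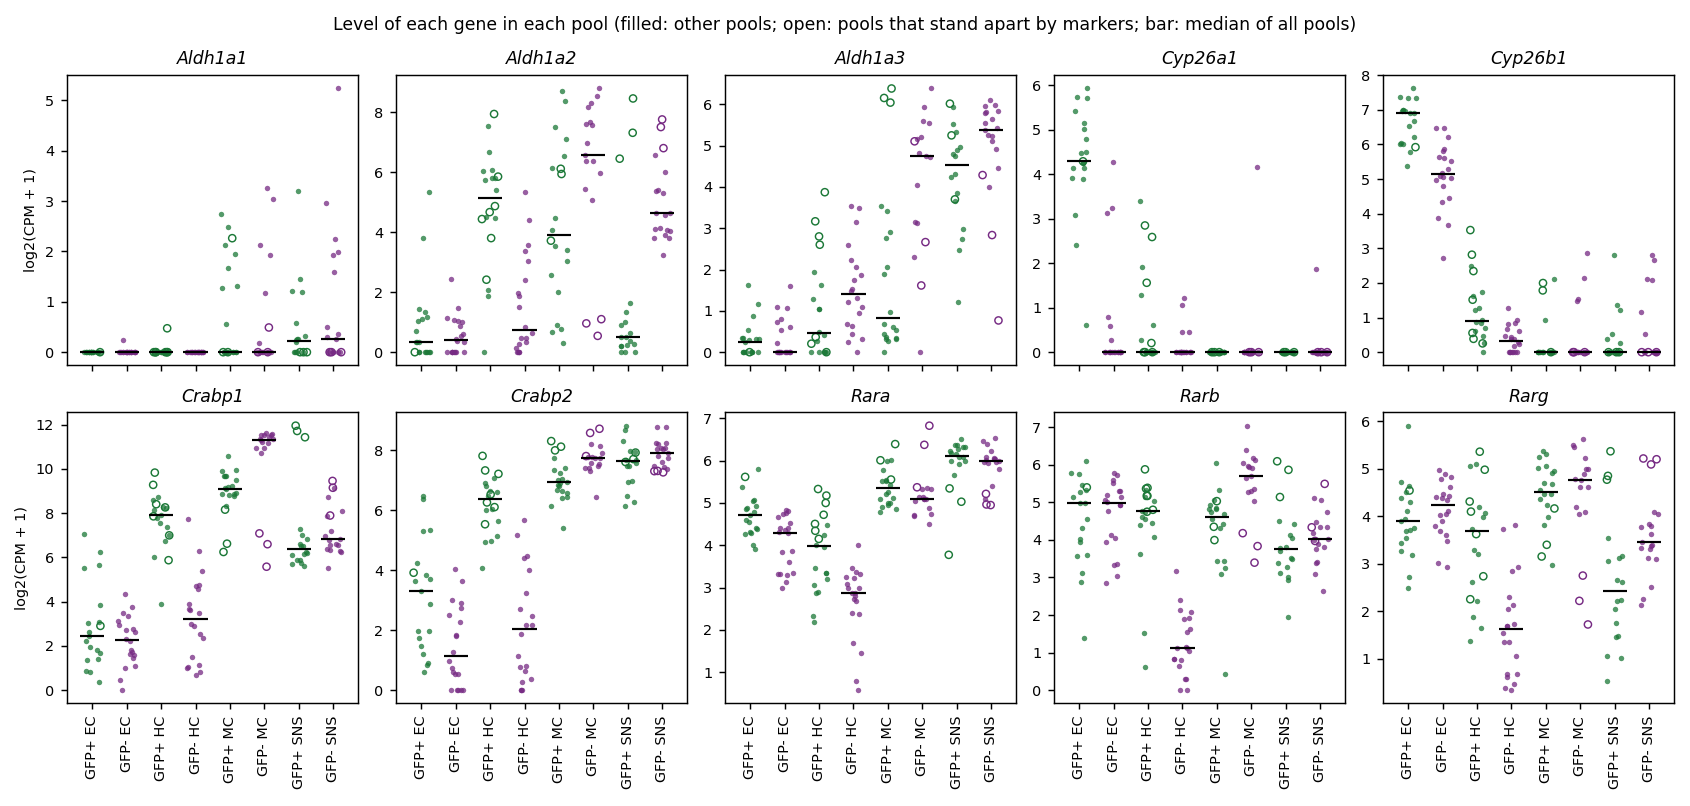
CPM of the 10 retinoic acid genes (log scale of CPM + 1) in each of the 8 populations. Each point is 1 pool, open where it stands apart by markers of another cell type and filled otherwise, and bars mark the median. Cyp26b1 is high in the EC pools alone, Crabp1 is highest in GFP- MC pools, and Rarb is low in GFP- HC pools.

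Mean levels over all passing pools differed between the populations. ECs and HCs were all from E10.5 and MCs and SNS cells all from E11.5, so stage and cell type cannot be told apart between them. Among the breakdown enzymes, mean Cyp26b1 was 107 and 40.1 CPM in GFP+ and GFP- ECs and at most 1.98 CPM in any other population. Mean Cyp26a1 was 24.7 CPM in GFP+ ECs, but 1.80 CPM in GFP- ECs and at most 1.39 CPM in any other population. Mean levels of the 3 Aldh1a genes were low in ECs, from 0 to 3.19 CPM. Aldh1a2 had its highest mean in GFP- MCs, 149 CPM, and Aldh1a3 in GFP- SNS cells, 38.6 CPM. Mean Aldh1a2 in GFP+ HCs, 53.1 CPM, lay above that in GFP- and GFP+ SNS cells (50.8 and 33.4 CPM). Without the pools that stood apart, mean Aldh1a2 was 51.6 CPM in GFP+ HCs and 28.8 CPM in GFP- SNS cells, and GFP+ SNS cells had its lowest mean, 0.531 CPM. Over all pools, populations next to each other in the order of Aldh1a means differed by less than the larger of their standard deviations. Mean Crabp1 reached 2129 CPM in GFP- MCs. The receptors were more even, with means of 6.26 to 64.1 CPM for Rara, 1.81 to 52.3 for Rarb and 3.197 to 24.8 for Rarg, and each of the 3 was lowest in GFP- HCs.

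Between GFP+ and GFP- ECs, 5 of 7 tested genes were higher in GFP+ cells and none lower, where 36% of 15073 genes were called and 19.5% were higher. With ERCC spike-in scaling 3 of the 7 were called, among them Rarg as lower, where 6636 of the 15073 genes were called. Between GFP+ and GFP- HCs, 6 of 7 were higher, where 26.6% of 16200 genes were called and 17.1% were higher. In MCs 1 of 9 was called, lower in GFP+ cells, where 4.36% of 16026 genes were called and 2.15% were lower. In SNS cells edgeR called 0 of 9, where 3.87% of 16143 genes were called and 1.86% were lower. Crabp1 alone had an unadjusted p under 0.05 there (p = 0.0215), and DESeq2's Wald test and the study's own test each called 1 of the 9. Without the pools that stood apart 4 of 7 were higher in GFP+ ECs (35.5% of all genes called, 18.5% higher) and 5 of 7 in GFP+ HCs (20.9% called, 12.2% higher). In that set 4 of 8 were lower in GFP+ MCs (10.4% called, 4.89% lower) and 2 of 9 in GFP+ SNS cells (10.4% called, 5.48% lower). The median log2 fold change over the tested genes of the pathway was 1.37 in ECs and 3.39 in HCs, against 0.10 and 0.05 over all genes tested. It was -0.68 in MCs and -0.63 in SNS cells, against -0.01 and -0.00388 over all genes. Without the pools that stood apart it was 1.39, 3.06, -1.02 and -0.99 in ECs, HCs, MCs and SNS cells. ECs and HCs did not share all 7 genes: the Cyp26 genes were tested in ECs and not HCs, and Aldh1a2 and Aldh1a3 in HCs and not ECs. A gene could pass the count filter through pools of 1 GFP state, so medians over tested genes are a description only.

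**Figure D2:**
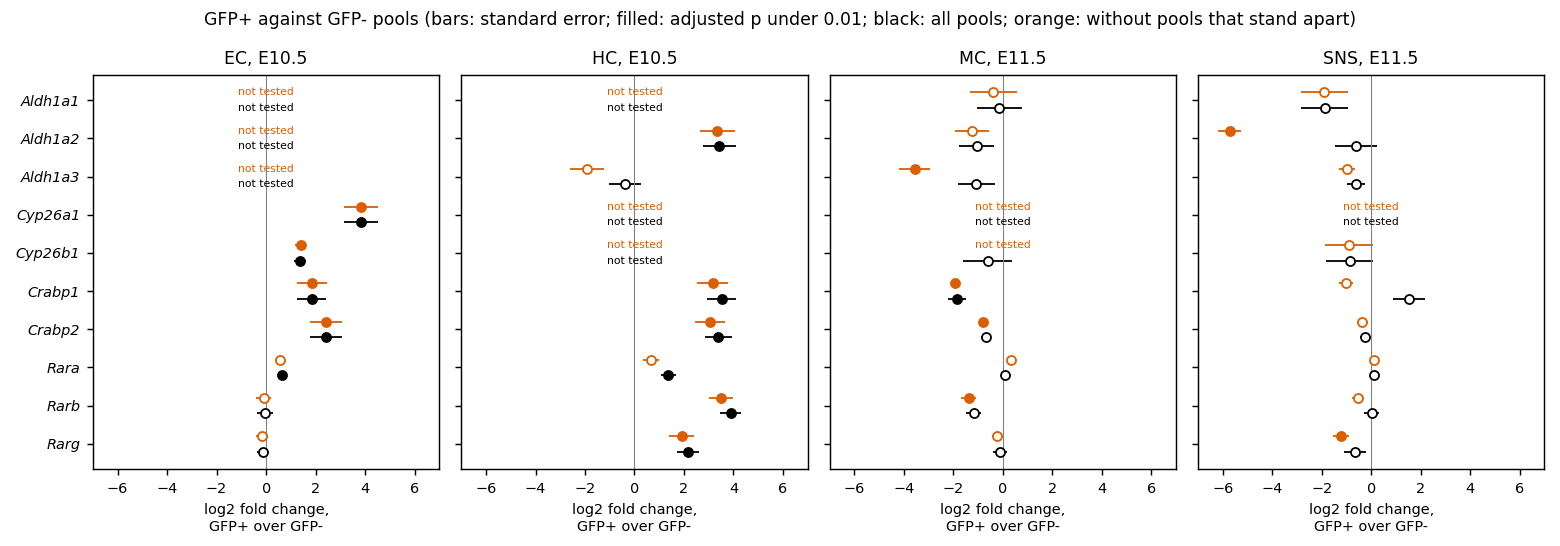
Log2 fold change of each tested retinoic acid gene between GFP+ and GFP- pools of each cell type, with bars of 1 SE. Filled symbols were called at an adjusted p under 0.01, and the values over all passing pools stand beside those without the pools that stood apart. Called changes are above 0 in ECs and HCs and below 0 in MCs and SNS cells.

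Among the synthesis enzymes, Aldh1a2 encodes the main retinaldehyde dehydrogenase of the early embryo. In GFP+ HCs it lay at 0, 35.01 and 244 CPM (lowest, median and highest of 20 pools), and in GFP- HCs at 0, 0.663 and 39.8 CPM. The ranges overlapped, and 10 of 20 GFP+ pools lay above every GFP- pool. The difference was 10.8-fold (log2 3.43 ± 0.67, adjusted p = 7.52e-05) and was 3.35 ± 0.72 without the 7 GFP+ HC pools that stood apart (adjusted p = 0.000493). In ECs it reached 39.5 CPM in 1 GFP+ pool, with medians of 0.257 and 0.338 CPM in GFP+ and GFP- ECs, and too few pools had 10 counts for a test.

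At E11.5 the values of Aldh1a2 in SNS cells depended on the 6 SNS pools with mesenchymal markers. Over all pools it lay at 0, 0.427 and 350 CPM in GFP+ SNS cells and at 8.52, 23.9 and 215 CPM in GFP- SNS cells, and edgeR did not call the difference (log2 -0.63 ± 0.85, adjusted p = 0.735), while the study's own test on log values did (log2 -4.67, adjusted p = 0.00242). Without the 6 pools it lay at 0, 0.293 and 2.14 CPM in 15 GFP+ pools and at 8.52, 19.7 and 92.9 CPM in 16 GFP- pools. All 16 GFP- pools were then above all 15 GFP+ pools, a 52.6-fold difference (log2 -5.72 ± 0.46, adjusted p = 5.9e-11). In these pools 3 counts corresponded to 0.459 to 1.07 CPM in GFP+ SNS cells, and 1 of the 15 GFP+ pools had at least 10 counts. The same comparison separated markers of the coelomic epithelium and gonad. Their 6 genes summed to 0.2 to 6.7 CPM in GFP+ SNS pools and 2.8 to 351 CPM in GFP- SNS pools, and 4 of 4 tested (Wt1, Gata4, Lhx9 and Nr5a1) were lower in GFP+ cells. Mesenchymal markers were lower there for 6 of 7 and nephric markers for 4 of 5 (Pax2, Pax8, Emx2 and Osr1, with Ret higher), while sympathetic markers were higher for 6 of 7 (Ngfr was lower). The GFP- SNS pool with the lowest coelomic sum, 2.81 CPM, had 16.4 CPM of Aldh1a2. The part of any of these cell types in the Aldh1a2 difference was not tested.

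**Figure D3:**
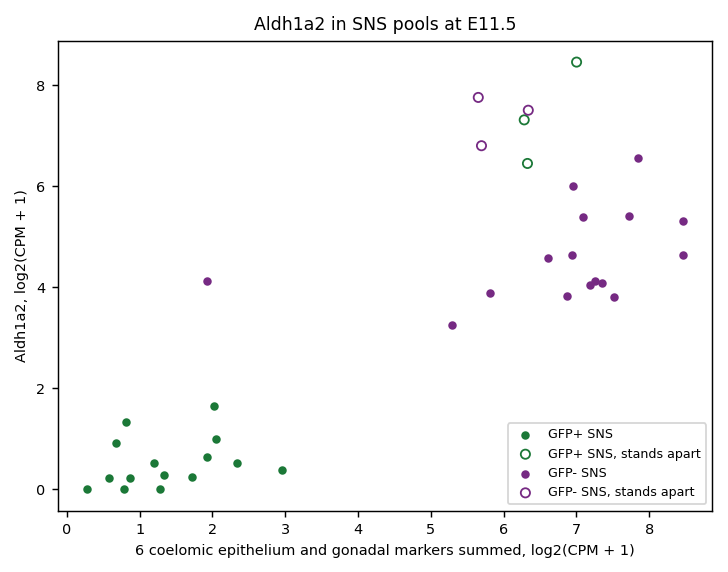
Aldh1a2 against the summed CPM of 6 coelomic epithelium and gonadal markers (both on log scales of CPM + 1) in each SNS pool, GFP+ and GFP- in separate colours and pools that stood apart as open symbols. The 15 filled GFP+ points lie at or below 2.14 CPM of Aldh1a2, and the 16 filled GFP- points at or above 8.52 CPM.

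In MCs Aldh1a2 varied over most of its range within each group. It lay at 0.226, 13.9 and 416 CPM in GFP+ MCs and at 0.458, 95.1 and 448 CPM in GFP- MCs, and the difference was not called (log2 -1.06 ± 0.71, adjusted p = 0.403, and -1.25 ± 0.69, adjusted p = 0.234, without the pools that stood apart). The GFP difference of Aldh1a2 itself differed between SNS cells and MCs only without the 12 pools (interaction log2 -4.45 ± 1.03, adjusted p = 0.00103, where 10.4% of genes were called), and over all pools it was 0.43 ± 1.14 (adjusted p = 0.854).

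Aldh1a3 encodes the enzyme known from the eye, nose and urogenital tract. It was at 0.703, 40.7 and 67.9 CPM in GFP- SNS cells and at 1.32, 22.4 and 63.6 CPM in GFP+ SNS cells, and the ranges overlapped. Leaving out the pools that stood apart gave an SNS difference of -0.99 ± 0.32 (adjusted p = 0.0292), which was not called. In MCs it lay at 0, 0.780 and 82.3 CPM in GFP+ pools and at 0, 25.9 and 83.3 CPM in GFP- pools, and was not called (log2 -1.07 ± 0.73, adjusted p = 0.416). The 3 GFP+ MC pools with sympathetic markers held the high end of the GFP+ range. Without the 6 MC pools the GFP+ highest value was 10.6 CPM, 10 of 14 GFP- pools lay above every GFP+ pool, and the difference was 11.8-fold (log2 -3.56 ± 0.64, adjusted p = 9.16e-05). Its interaction between SNS cells and MCs was then 2.57 ± 0.68 (adjusted p = 0.00412), against 0.41 ± 0.82 (adjusted p = 0.801) over all pools. In HCs it was low in both groups, with medians of 0.372 and 1.64 CPM in GFP+ and GFP- cells (log2 -0.38 ± 0.64, adjusted p = 0.679). Without the GFP+ HC pools that stood apart the value was -1.92 ± 0.68 (adjusted p = 0.0291) and again not called, with GFP+ values lower on average.

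Aldh1a1, the third enzyme of the group, was near absent. It had 0 counts in all 19 GFP+ EC pools and all 20 GFP- HC pools, and medians of 0 to 0.202 CPM in the E11.5 populations. A count of 0 allowed up to 0.499 to 2.14 CPM in a GFP+ EC pool and 0.191 to 1.49 CPM in a GFP- HC pool, a floor of 3 counts that covers counting error only. The highest value, 37.04 CPM, was in 1 GFP- SNS pool. The gene was not called in MCs (log2 -0.14 ± 0.91, adjusted p = 0.951, and -0.38 ± 0.95, adjusted p = 0.845, without the pools that stood apart) or in SNS cells (-1.89 ± 0.94, adjusted p = 0.238, and -1.91 ± 0.95, adjusted p = 0.181).

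Breakdown of retinoic acid was read from Cyp26a1 and Cyp26b1. Cyp26a1 lay at 0.536, 18.5 and 60.4 CPM in GFP+ ECs. In GFP- ECs it lay at 0, 0 and 18.3 CPM, with 0 counts in 14 of 20 pools. The difference was 14.3-fold (log2 3.83 ± 0.68, adjusted p = 9.89e-06), and 10 of 19 GFP+ pools lay above every GFP- pool. Outside ECs its medians were 0 in all 6 populations, and all 20 GFP+ MC pools and all 18 GFP+ SNS pools had 0 counts, where 3 counts stood for 0.335 to 1.13 and 0.459 to 1.07 CPM.

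Cyp26b1 was higher than Cyp26a1 in the same cells, with means of 20.0 and 12.5 CPM per kilobase of exon in GFP+ ECs. It lay at 40.7, 119 and 198 CPM in GFP+ ECs and at 5.53, 34.1 and 88.7 CPM in GFP- ECs. The ranges overlapped, with 12 of 19 GFP+ pools above every GFP- pool, and the difference was 2.59-fold (log2 1.37 ± 0.24, adjusted p = 5.52e-06). With ERCC spike-in scaling it was 0.75 (adjusted p = 0.0199), and in one fit of all 8 populations 1.41 (adjusted p = 0.0133), and it was then not called. ERCC scaling moved the median of all EC genes by -0.70 on the log2 scale. ECs and HCs differed as well. With both GFP states joined, 38 of 39 EC pools lay above every HC pool, and Cyp26b1 was 84.0-fold lower in HCs (log2 -6.39 ± 0.28, adjusted p = 1.33e-34), in a comparison in which 50.6% of 17851 genes were called. Cyp26a1 fell by 3.66 ± 0.56 from ECs to HCs (adjusted p = 2.48e-08). Some markers of other cell types also followed GFP in ECs: 7 mesenchymal markers summed to 19.9 to 1317 CPM in GFP+ ECs and 1.6 to 66.4 CPM in GFP- ECs, and 6 of 6 tested were higher (5 of 6 without the pool that stood apart). Epithelial markers summed to 22.3 to 124 CPM in GFP+ and 0.308 to 7.89 CPM in GFP- ECs, with 2 of 3 tested higher (Krt8 and Krt18), and nephric markers to 13.7 to 83.35 and 0 to 7.70 CPM, with 2 of 2 higher (Wnt11 and Ret). Haematopoietic markers summed to 206 to 476 and 39.0 to 126.5 CPM, with 4 of 6 higher, and endothelial markers themselves to 4915 to 6399 and 3088 to 4747 CPM, with 6 of 7 higher and Emcn lower. The GFP+ and GFP- sums of these last 4 lists did not overlap. Macrophage markers summed to 11.8 to 107 and 29.8 to 78.0 CPM, with 0 of 7 called. Of the tested glial and coelomic markers 0 of 2 and 0 of 1 were called. Sympathetic markers were higher for 1 of 1 (Dbh) and erythroid markers for 1 of 3 (Hbb-y). The part of other cell types in the EC differences of the retinoic acid genes was not tested. Cyp26a1 and Cyp26b1 also differed by 3.83 and 1.39 without the GFP+ EC pool that stood apart.

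Per kilobase of exon, Crabp1 and Crabp2 had the highest means of the 10 genes in all 4 E11.5 populations. Crabp1 lay at 74.9, 547 and 1530 CPM in GFP+ MCs and at 46.8, 2506 and 3126 CPM in GFP- MCs. In this comparison 14 of 17 GFP- pools lay above every GFP+ pool, and the 3 others were those with sympathetic markers. It fell by 1.84 ± 0.37 on the log2 scale in GFP+ MCs (adjusted p = 0.000972), and was not called in one fit of all 8 populations (adjusted p = 0.0135) or by the study's own test (adjusted p = 0.0475). With those 6 pools left out the ranges separated, at 321 to 1530 CPM in 17 GFP+ and 1680 to 3126 CPM in 14 GFP- pools (log2 -1.92 ± 0.16, adjusted p = 7.89e-11). In GFP- MCs Crabp1 averaged 2655 CPM per kilobase of exon and Crabp2 172 CPM.

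In SNS cells the sign of Crabp1 turned with the pools used and with the test. Over all pools it lay at 47.4, 82.8 and 3972 CPM in GFP+ and at 44.6, 112 and 702 CPM in GFP- pools (log2 1.53 ± 0.64, adjusted p = 0.142). Over the same pools DESeq2's Wald test called it lower in GFP+ cells (log2 -1.32, adjusted p = 0.000486), and the study's own test gave -0.0991 (adjusted p = 0.945). The 3 GFP+ SNS pools with mesenchymal markers held 2764 to 3972 CPM. Without the 6 SNS pools it lay at 47.4, 71.8 and 153 CPM in GFP+ and 44.6, 103 and 562 CPM in GFP- pools (log2 -1.02 ± 0.29, adjusted p = 0.0115), again not called. The interaction between SNS cells and MCs was 3.36 ± 0.75 over all pools (adjusted p = 0.000732, where 9.66% of genes were called) and 0.92 ± 0.33 without the 12 pools (adjusted p = 0.0472).

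At E10.5, Crabp1 and Crabp2 were called in both cell types. In HCs Crabp1 lay at 13.7, 237 and 912 CPM in GFP+ pools and at 0.596, 8.53 and 213 CPM in GFP- pools (log2 3.52 ± 0.58, adjusted p = 5.16e-06). Crabp2 lay there at 15.7, 81.8 and 225 CPM against 0, 3.11 and 50.6 CPM (log2 3.39 ± 0.54, adjusted p = 3.57e-06). The groups overlapped, with 12 of 20 GFP+ HC pools above every GFP- pool for Crabp1 and 14 of 20 for Crabp2. In ECs both were lower and more scattered. Crabp2 lay at 0.512, 8.98 and 88.3 CPM in GFP+ ECs and at 0, 1.19 and 15.5 CPM in GFP- ECs (log2 2.42 ± 0.64, adjusted p = 0.00166). Crabp1 lay at 0.288, 4.51 and 131 CPM against 0, 3.85 and 19.03 CPM, and its call was marginal (log2 1.84 ± 0.60, adjusted p = 0.00993). It was lost with ERCC scaling (adjusted p = 0.0538), with no filter on genes (adjusted p = 0.0109) and with the study's own test (adjusted p = 0.386), and the medians of GFP+ and GFP- ECs lay close together.

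Crabp2, which carries retinoic acid to the receptors in the nucleus, was more even at E11.5, at 41.7, 121 and 317 CPM in GFP+ MCs, 85.5, 216 and 422 CPM in GFP- MCs, 69.6, 200 and 454 CPM in GFP+ SNS cells and 153, 239 and 437 CPM in GFP- SNS cells. In MCs it was -0.68 ± 0.20 (adjusted p = 0.0215), not called by edgeR over all pools, but called there by DESeq2's Wald test (adjusted p = 0.00994) and the study's own test (adjusted p = 0.00762), and without the pools that stood apart it was called (log2 -0.78 ± 0.16, adjusted p = 0.000541). In SNS cells it was not called in either set of pools, at -0.24 ± 0.19 (adjusted p = 0.523) and -0.36 ± 0.21 (adjusted p = 0.282).

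Of the 3 receptors, Rarb had the largest fold change between GFP+ and GFP- HCs. It lay at 0.527, 26.1 and 57.9 CPM in GFP+ HCs and at 0, 1.17 and 7.95 CPM in GFP- HCs. Of the 20 GFP+ pools, 18 lay above every GFP- pool. The difference was 14.8-fold (log2 3.89 ± 0.42, adjusted p = 2.38e-09), and was 3.51 ± 0.48 without the 7 GFP+ HC pools that stood apart (adjusted p = 8.2e-07). Of the exon bases of Rarb, 38.4% lie opposite exons of Gm48162 and Top2b on the other strand. Reads from both strands cannot be told apart here, and the strand setting of the counting was not given. Top2b, named here after its values were seen, averaged 148 and 118 CPM in GFP+ and GFP- HCs and 188 and 189 CPM in GFP+ and GFP- ECs.

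Rarg lay at 1.58, 11.8 and 39.95 CPM in GFP+ HCs and at 0.262, 2.06 and 12.96 CPM in GFP- HCs (log2 2.16 ± 0.45, adjusted p = 0.000153, and 1.90 ± 0.49, adjusted p = 0.00309, without the pools that stood apart). Rara lay at 3.57, 14.8 and 39.1 CPM against 0.494, 6.28 and 15.1 CPM (log2 1.37 ± 0.31, adjusted p = 0.000505). Its call was lost without the pools that stood apart (0.68 ± 0.33, adjusted p = 0.112). Per kilobase of exon, the receptors in GFP- HCs averaged 1.43 for Rara, 0.345 for Rarb and 0.750 CPM for Rarg, and in GFP+ HCs 3.68, 5.10 and 3.33 CPM, so Rarb was lowest of the 3 in GFP- HCs and highest in GFP+ HCs.

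GFP+ and GFP- HC pools also differed in markers of other cells. The 7 mesenchymal markers summed to 13.7 to 645 CPM in GFP+ and 1.1 to 134 CPM in GFP- HC pools, with 19 of 20 GFP+ pools above every GFP- pool, and 6 of 7 were called higher (4 of 7 without the pools that stood apart, where the GFP+ range was 13.7 to 317 CPM). Epithelial markers were higher for 5 of 5 in both sets of pools, endothelial markers for 6 of 7, glial markers for 4 of 5 (2 of 4), sympathetic markers for 7 of 7 (1 of 3) and nephric markers for 2 of 3 (0 of 2). Coelomic markers were higher for 3 of 3 (1 of 1, Wt1), with sums of 1.05 to 77.5 CPM in GFP+ and 0.299 to 17.4 CPM in GFP- HC pools. Ptprc, which encodes CD45, lay at 4.65 to 356 CPM in GFP+ and 298 to 643 CPM in GFP- HCs, and Itga2b, which encodes CD41, at 9.48 to 1410 and 0.60 to 136 CPM. Macrophage markers summed to 56.2 to 8662 CPM in GFP+ and 3139 to 6414 CPM in GFP- HC pools. Of these, 2 of 7 were lower in GFP+ cells (Csf1r and Cx3cr1), and 0 of 7 without the pools that stood apart. Of 7 haematopoietic markers, 4 were lower (Ptprc, Spi1, Laptm5 and Coro1a) and 1 was higher (Itga2b) in both sets of pools. The GFP+ HC pool with the lowest mesenchymal sum, 13.7 CPM, had 0.527 CPM of Rarb, 13.7 of Crabp1, 30.5 of Crabp2 and 2.63 of Aldh1a2. In the 5 GFP- HC pools with mesenchymal sums of 70 to 134 CPM, Rarb lay at 0 to 7.95 CPM and Crabp1 at 4.86 to 77.0 CPM. Crabp2 lay there at 0.540 to 50.6 CPM and Aldh1a2 at 0 to 39.8 CPM. The highest GFP- HC values of Rarb, Crabp2 and Aldh1a2 were all in 1 of these pools, with a mesenchymal sum of 76.6 CPM. That of Crabp1, 213 CPM, was in none of the 5. The pools with the highest sums, 133.6 and 132.2 CPM, had 0 and 2.70 CPM of Rarb and 0.37 and 0.54 CPM of Aldh1a2. They had 35.1 and 5.58 CPM of Crabp2 and 22.8 and 40.4 CPM of Crabp1. The part of other cell types in the HC differences of the retinoic acid genes was not tested.

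**Figure D4:**
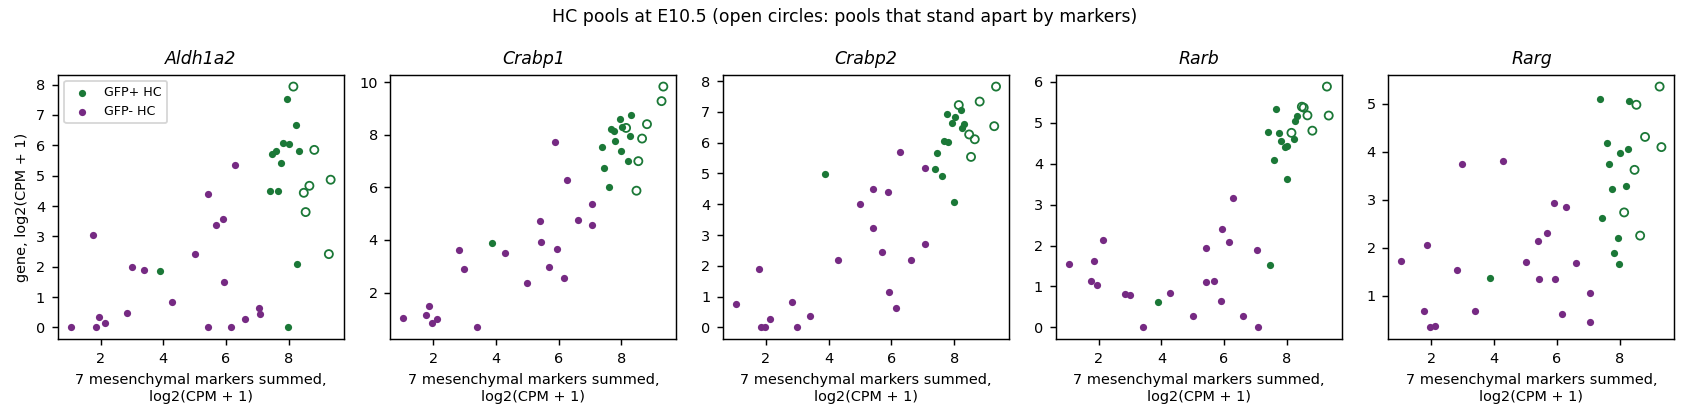
Aldh1a2, Crabp1, Crabp2, Rarb and Rarg against the summed CPM of 7 mesenchymal markers (both on log scales of CPM + 1) in each HC pool, GFP+ and GFP- in separate colours and pools that stood apart as open symbols. Of the 20 GFP+ pools, 19 lie to the right of every GFP- pool, and the one farther left, at 13.7 CPM, holds 0.527 CPM of Rarb.

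In ECs neither Rarb nor Rarg was called. Rarb lay at 1.62, 30.5 and 67.2 CPM in GFP+ ECs and at 6.23, 30.5 and 54.5 CPM in GFP- ECs (log2 -0.05 ± 0.31, adjusted p = 0.910), and Rarg had medians of 13.9 and 17.8 CPM (log2 -0.12 ± 0.24, adjusted p = 0.695). The GFP difference of both receptors was larger in HCs than in ECs, by 3.93 ± 0.51 for Rarb (adjusted p = 2e-09) and by 2.27 ± 0.50 for Rarg (adjusted p = 0.000174), in a comparison in which 22.7% of genes were called (21.1% without the pools that stood apart). The same terms were 3.54 ± 0.55 and 1.99 ± 0.52 without those pools. Rara lay at 13.95, 25.4 and 54.4 CPM in GFP+ ECs and at 6.91, 18.6 and 27.7 CPM in GFP- ECs (log2 0.65 ± 0.19, adjusted p = 0.00532). That call was lost without the GFP+ EC pool that stood apart (0.56 ± 0.19, adjusted p = 0.0145), and with ERCC scaling the value turned to -0.11. With that scaling Rarg was lower in GFP+ ECs (log2 -0.92, adjusted p = 0.00437).

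At E11.5, Rarb lay at 0.356, 23.7 and 64.8 CPM in GFP+ MCs and at 9.52, 50.7 and 131 CPM in GFP- MCs (log2 -1.18 ± 0.32, adjusted p = 0.0120), below the threshold only with DESeq2's Wald test (adjusted p = 0.00303) and without the pools that stood apart, where it was lower in GFP+ MCs (log2 -1.38 ± 0.31, adjusted p = 0.00133). Rarg lay at 0.440, 4.41 and 40.2 CPM in GFP+ SNS cells and at 3.36, 10.03 and 36.1 CPM in GFP- SNS cells (log2 -0.66 ± 0.44, adjusted p = 0.406). It was called without the pools that stood apart, where it fell by 1.22 ± 0.33 (adjusted p = 0.00798) and had medians of 3.66 CPM in GFP+ and 9.45 CPM in GFP- pools. Rarg was not called in MCs (-0.13 ± 0.28, adjusted p = 0.839, and -0.24 ± 0.20, adjusted p = 0.462, without the pools that stood apart). Rarb lay at 2.83, 12.5 and 67.4 CPM in GFP+ SNS cells and at 5.21, 15.3 and 44.1 CPM in GFP- SNS cells, and was not called (0.02 ± 0.31, adjusted p = 0.985, and -0.53 ± 0.25, adjusted p = 0.143). Rara was not called in MCs (0.10 ± 0.18, adjusted p = 0.799, and 0.31 ± 0.13, adjusted p = 0.105) or in SNS cells (0.11 ± 0.17, adjusted p = 0.770, and 0.13 ± 0.10, adjusted p = 0.427).

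Across cell types at one stage, with GFP+ and GFP- pools joined, all 9 tested genes differed between HCs and ECs. Aldh1a2 (3.38 ± 0.54), Aldh1a3 (2.82 ± 0.50), Crabp1 (2.98 ± 0.42) and Crabp2 (1.79 ± 0.41) were higher in HCs. Rara (-1.13 ± 0.18), Rarb (-2.06 ± 0.26), Rarg (-1.39 ± 0.25) and both Cyp26 genes were lower. The same 9 were called without the pools that stood apart, where 50.3% of genes were called. The joined values cover both GFP states, which differed in HCs. Mean Rarb was 26.8 CPM in GFP+ HCs and 1.81 CPM in GFP- HCs, against 28.4 and 28.7 CPM in GFP+ and GFP- ECs. For Rarg these means were 14.2, 3.197, 16.8 and 17.8 CPM. Mean Aldh1a2, Crabp1 and Crabp2 were 53.1, 271 and 87.6 CPM in GFP+ HCs and 5.09, 24.03 and 8.72 CPM in GFP- HCs. In GFP+ ECs they were 3.19, 19.02 and 18.2 CPM. Between SNS cells and MCs, 4 of 9 were called, against 23.4% of 17733 genes. Rara was higher in SNS cells (0.57 ± 0.13, adjusted p = 0.000241), and Rarb (-0.92 ± 0.23), Rarg (-1.13 ± 0.26) and Crabp1 (-1.61 ± 0.38) were lower. Without the 12 pools 7 of 9 were called, against 40.2% of genes, with Aldh1a2 at -4.88 ± 0.51, Aldh1a3 at 1.84 ± 0.34 and Crabp2 at 0.60 ± 0.14 as the additions, and Crabp1 at -3.51 ± 0.18.

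Ordered by mean level over all pools, most neighbouring populations differed by less than the larger of their standard deviations. A step between an E10.5 and an E11.5 population holds both stage and cell type. The steps beyond it were those from GFP+ ECs to the next population for Cyp26a1, from GFP+ to GFP- ECs and from GFP- ECs to GFP+ HCs for Cyp26b1, from GFP- MCs to GFP+ SNS cells for Crabp1, from GFP+ HCs to GFP+ ECs for Crabp2, and from GFP- SNS cells down to GFP- HCs for Rarb. Aldh1a1, Aldh1a2, Aldh1a3, Rara and Rarg had no such step over all pools. Without the pools that stood apart, Aldh1a2 gained a step from GFP- SNS cells to GFP- HCs, Rara one from GFP- SNS cells to GFP+ MCs, Aldh1a3 one from GFP+ SNS cells to GFP- HCs, and Rarg one from GFP- to GFP+ SNS cells. Rarb gained one from GFP- MCs to GFP- ECs, Crabp1 and Crabp2 both gained those from GFP- to GFP+ MCs and from GFP+ MCs to GFP+ HCs, and Crabp1 gained one from GFP+ SNS cells to GFP- HCs.

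Genes that handle vitamin A before the last oxidation formed a list of 17. The all-gene shares of calls given above for each cell type (36% in ECs, 26.6% in HCs, 4.36% in MCs and 3.87% in SNS cells, and 10.4% in both E11.5 cell types without the pools that stood apart) are the background of the counts for this list and the next lists. Of 8 tested in HCs, 6 were higher in GFP+ cells and none lower, against 17.1% of all genes higher, with a list median of 1.15 against 0.05 over all genes. Stra6, the cell-surface receptor for the retinol carrier, averaged 20.1 CPM in GFP+ and 0.266 CPM in GFP- HCs (log2 6.18 ± 0.60, adjusted p = 2.47e-10). Rdh10, which carries out the first oxidation, averaged 25.2 and 9.57 CPM (1.40 ± 0.30). Adh1, Dhrs3 and Dhrs4 were also among the 6, and the same 6 were called without the pools that stood apart. In ECs 1 of 9 was higher (Rbp2) and 2 were lower (Adh5, and Dhrs3 at -0.94 ± 0.26), with a median of 0.05. In MCs 2 of 10 were lower (Stra6 and Adh5), and without the pools that stood apart 3 of 10, among them Adh1 and Adh5.

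In SNS cells 1 of 9 was higher, Stra6, which averaged 84.1 CPM in GFP+ and 18.5 CPM in GFP- pools (2.20 ± 0.38, adjusted p = 0.000174). Without the pools that stood apart 4 were lower in GFP+ SNS cells, among them Rdh10 (-2.43 ± 0.30), Adh1 (-5.06 ± 0.88) and Dhrs3 (-3.14 ± 0.55), the same direction as Aldh1a2, while Stra6 remained higher (2.36 ± 0.33). Stra6 and Aldh1a2 thus differed in opposite directions between GFP+ and GFP- SNS pools in that set.

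Among 12 receptor partners and cofactors, 11 were tested in ECs, with 5 higher, among them the coactivators Ncoa1 and Ncoa2, the corepressor Ncor1 and Nrip1, and with Fabp5 lower. In HCs 2 of 11 were higher (Ncor1 and Fabp5), and in SNS cells Nrip1 alone of 12 was lower (-0.92 ± 0.12). In MCs edgeR called 0 of 12, with 5 at an unadjusted p under 0.05. Without the pools that stood apart 2 of 12 were higher in GFP+ MCs, among them Ncoa1, and 2 lower (Med1 and Fabp5), and in SNS cells 1 was higher and 2 lower (Rxrg and Nrip1). The list medians, 0.15 in ECs and 0.05 in HCs, stood beside 0.10 and 0.05 over all genes. Of 10 genes known to respond to retinoic acid, 6 were tested in ECs, and Tgm2 was higher in GFP+ ECs, at 107 against 41.1 CPM on average (1.35 ± 0.18, adjusted p = 7.18e-08). In HCs 2 of 5 were higher, among them Hoxb5 (3.12 ± 0.67, adjusted p = 0.000272), which was low, at a mean of 6.63 CPM in GFP+ HCs. Without the pools that stood apart 1 of 3 was higher in HCs, and Hoxb5 was not tested. In MCs edgeR called 0 of 7 in both sets of pools, with 1 and 2 at an unadjusted p under 0.05. In SNS cells 1 of 8 was lower, Hoxb1 (-4.92 ± 0.91), which was also the 1 of 7 called without the pools that stood apart. Of the members that also belong among the known responsive genes, Rarb was called higher in GFP+ HCs and not in ECs, and Cyp26a1 was called higher in GFP+ ECs and not tested in HCs.

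Over all 153 pools the genes most alike each member in log2(CPM + 1) were named by Pearson's r among 16435 genes. These values are a description across pools that share cell type and stage. Cyp26b1 ran closest to the endothelial genes Sox17 (r = 0.94), Sox7 (0.93) and Ptprb (0.93), and Cyp26a1 to Ocln (0.83), Nkx2-3 (0.82) and Sost (0.81). Crabp1 ran closest to Gpc3 (0.91), Mfap4 (0.90) and Cdh11 (0.88), all 3 with their highest means in GFP+ MCs, and Crabp2 to Meis3 (0.89), Ldhb (0.88) and Gm5514 (0.88). Aldh1a2 had Wt1 (0.84), Alx1 (0.74) and Crabp1 (0.74), and Aldh1a3 had Ndst3 (0.80), Megf10 (0.78) and Prss12 (0.78). For the receptors the nearest genes were Dpysl3 (0.87), Cdkn1c (0.84) and Tspan3 (0.83) for Rara, Ddah2 (0.73), Cd24a (0.72) and Selenow (0.72) for Rarb, and Nfib (0.79), Pdlim7 (0.77) and Lpp (0.76) for Rarg.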

How the data were processed

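Smart-seq2 RNA of 160 pools of 20 sorted cells was measured, and column labels gave the population of each pool. The deposited values are raw read counts per gene, neither normalized nor filtered, which the authors made with HTSeq. The study's methods name STAR and Ensembl build 81, while the submitters' processing notes name GSNAP 2015-09-29, HTSeq 0.5.3p3 and mm10. The strand and overlap settings were not given in the sources used here. Rows that name no gene held 50.4% of reads and stayed out of library sizes and tests. The study's limits (over 500000 reads, over 20% on genes, under 20% mitochondrial and under 20% ERCC) left 153 pools. A further limit of the study on high coverage genes was not applied, since the coverage is not defined there, and each of these pools had at least 9888 genes with 10 or more counts. There were 0 unused columns.

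The 10 genes were found by Ensembl ID (GRCm38, GENCODE release M21). A gene entered a test if 5 or more pools held 10 or more of its counts. Tests used edgeR 4.0.16 under R 4.3.3 (quasi-likelihood with TMM and robust dispersion, Benjamini-Hochberg), within each cell type, and within each stage for contrasts of cell types and interactions. Alternatives were DESeq2 1.42.0 size factors or its Wald test, ERCC size factors, other gene filters, all 160 pools, one fit of all 8 populations, and the study's own test (scanpy 1.11.5 on log counts scaled with scran 1.30.0). Leaving out pools that stood apart by markers was added after seeing the data. CPM per kilobase used the union of exons. The edgeR and DESeq2 fits were tested on simulated counts for the comparison of GFP+ with GFP- ECs, and the other steps were not.

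The members and gene lists were chosen with earlier results of these data known. Some genes of the lists are not reported here. Named genes were the members, the lists, Gata3, the sorting markers, and, for each member with a mean of at least 5 CPM in some population, the 3 genes with the highest Pearson's r among genes reaching 10 counts in 20 or more pools (log2 of CPM with a pseudocount of 1). Neighbouring populations were called apart where their means differed by more than the larger standard deviation. Because PCR copies were not marked by molecular identifiers, a floor of 3 counts covers counting error only.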

Additional observations from a re-analysis of the deposited data

Results flagged for a closer look

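The GFP difference of 5 genes differed between 2 cell types of the same stage by an interaction term in edgeR. Each was called in at least 1 set of pools, and no cause of these differences was tested. For HCs and ECs, 2 of 9 tested genes were called in both sets, where 22.7% and 21.1% of all genes were called. For SNS cells and MCs, 1 of 9 was called over all pools, where 9.66% of all genes were called. Without the pools that stood apart it was 2 of 9, where 10.4% were called. Over all pools these shares were thus near those of all genes. Rarb rose more with GFP in HCs than in ECs, by 3.93 on the log2 scale over all passing pools, and Rarg by 2.27.

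The difference of Crabp1 between SNS cells and MCs was 3.36 over all passing pools, and it was 0.92 and no longer called without the 12 E11.5 pools that went against their labels. Those of Aldh1a2 (-4.45) and Aldh1a3 (2.57) were called only without these 12 pools, and were 0.43 and 0.41 over all passing pools.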

How the results depend on the processing

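No paired analysis was possible because the columns carry no replicate number, so the planned replicate block was not run, and the study's own test was not run for interactions. Over all alternatives, 534 changes of members kept their direction and side of the threshold, 17 passed it newly, 12 lost it and 19 changed sign. Of the levels, 5, all with ERCC scaling, moved by more than 1 SD. That SD holds the pools that stood apart and so is no measure of their effect: without them mean Aldh1a2 in GFP+ SNS cells went from 33.4 to 0.531 CPM and mean Crabp1 from 629 to 81.5 CPM.

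The number of members called in ECs was 3 with ERCC scaling (5 before), where 6636 genes were called (5424 before). Among the 3 was Rarg, lower in GFP+ ECs, while the calls of Rara, Cyp26b1 and Crabp1 were lost. In MCs (1 before) the number of members called was 3 with DESeq2's Wald test and 4 without the pools that stood apart. In SNS cells (0 before) it was 1 with DESeq2's Wald test, 1 with the study's own test and 2 without those pools, where SNS cells against MCs gave 7 (4 before) and their interaction 2 (1 before). The genes called in MCs (698) were 381 with ERCC scaling, 1130 with one fit and 1585 without the pools that stood apart. In SNS cells (625) they were 1013 with ERCC scaling and 1631 without those pools, and between SNS cells and MCs (4150) they were 8545 and 6964. The cause was not tested, except that leaving out pools removes by construction those with markers of another cell type.

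ERCC scaling reversed Rara in ECs (-0.11) and MCs (-0.0705), Rarg in MCs (0.00809), Aldh1a3 in the HC and EC interaction (0.25), and Aldh1a2 (-0.20), Rara (0.60) and Cyp26b1 (0.33) in the SNS and MC interaction. The study's own test reversed Aldh1a1 (0.38) and Rarg (0.0630) in MCs, Rarb (-0.22) and Crabp1 (-0.10) in SNS cells, and Aldh1a1 between SNS cells and MCs (-0.11). Without the pools that stood apart, Rarb (-0.53) and Crabp1 (-1.02) in SNS cells and Aldh1a2 (-4.45) and Cyp26b1 (0.80) in the interaction were reversed. DESeq2's Wald test reversed Crabp1 in SNS cells (-1.32), and all deposited pools reversed Aldh1a1 between SNS cells and MCs (-0.10) and Rara in the interaction (0.0706).

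ERCC scaling moved the share of calls that were higher from 54.1% to 14.3% in ECs, 50.7% to 72.4% in MCs, 52.0% to 83.3% in SNS cells, 52.6% to 74.7% for HCs against ECs and 48.6% to 89.2% for SNS cells against MCs. The median of all genes moved by -0.70 in ECs, 0.35 in SNS cells, 0.39 and 0.48 in these 2 contrasts, and 0.63 and 0.38 in the interactions. With 20 cells a pool, values under the floor of 3 counts limit Aldh1a1, and Cyp26a1 outside ECs.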
